A study of Mus musculus with 6 samples.

Results

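Giant sarcomere and M-band genes were examined in ischemic muscle of wild-type and GPR174-deficient mice. The 9 genes are Ttn (Entrez 22138), Neb (17996), Mybpc1 (109272), Mybpc2 (233199), Mybph (53311), Myom1 (17929), Myom2 (17930), Myom3 (242702) and Lmod2 (93677). They were taken by name from the titin, nebulin, myosin-binding, myomesin and leiomodin families, with the estimated read counts of all listed transcripts summed per Entrez gene, and they are 9 of the 18089 genes in the table. Total RNA came from the ischemic gastrocnemius of male C57BL/6 mice aged 8 to 10 weeks, taken 7 days after hindlimb ischemia (HLI), in which an artery of the thigh is tied off and removed. The 3 WT libraries carry the intact receptor gene. The 3 GPR174-KO libraries come from Gpr174-/Y mice, which lack GPR174, a receptor for lysophosphatidylserine found on lymphocytes, in every tissue and not only in muscle or in one blood cell type. Both groups had HLI, so no library describes muscle without injury, and the comparison asks how the transcripts of injured muscle differ with the receptor gene removed.

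Titin is a single molecule that reaches from the Z-disc at the edge of the sarcomere to the M-band at its centre, and nebulin runs along the thin filament. Myosin-binding proteins C and H sit on the thick filament, the myomesins cross-link thick filaments at the M-band, and leiomodin 2 acts at the pointed end of the thin filament, where it adds actin. Together these proteins order the contractile lattice of striated muscle, and different fibre types and stages of fibre maturity use different members of the myosin-binding and myomesin families.

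Library totals were 18417077 to 18695013 counts in WT and 19173036 to 19394469 in GPR174-KO. Gpr174, the deleted gene, had 8, 2 and 5 counts in the 3 WT libraries and 1, 0 and 0 in the GPR174-KO libraries, which is too few for the main test. The defining markers of skeletal muscle were present in every library, where 16 mature fast fibre genes together made up 64700 to 208000 CPM (counts scaled to a common library total). Replicate 2 of each group stood out in another way. In WT it matched a weighted sum of replicates 1 and 3, with a weight of 0.603 for replicate 1. Over 5989 genes of at least 500 mean counts the departures from that sum had a spread of 0.716 counting errors. Spread here is the median absolute departure scaled to an SD, and between replicates 3 and 1 it was 5.01. In GPR174-KO the weight was 0.601 and the spread 0.644 counting errors over 6910 genes, where the spread between replicates 3 and 1 was 2.39. For the 9 genes the largest departure from that sum was 1.07 counting errors in WT and 1.0 in GPR174-KO, and replicate 2 lay between the other replicates for 9 of 9 genes in both groups. No label speaks to this and its origin was not tested. The p-values below count 3 libraries per group as separate samples, and the labels do not say whether each is 1 mouse. Values with replicates 1 and 3 only are therefore given beside the results on the 9 genes. In that fit 0 of all genes pass the adjusted p (5026 have an unadjusted p under 0.05).

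All 9 genes were lower in GPR174-KO muscle. Each passed the filter on low counts, and 9 of 9 passed an adjusted p of 0.05 in the lower direction (edgeR's quasi-likelihood test, Benjamini-Hochberg adjustment over 14395 genes), against a background of 54.6% of genes called in either direction and 27.6% called lower. Only Mybpc2 also had a log2 fold change beyond 1 in size, against 4.84% of genes called lower by both thresholds. The 3 GPR174-KO libraries lay below the 3 WT libraries without overlap for all 9 genes in CPM with TMM scaling, a state found for 32.4% of genes. As a percent of all counts, without TMM, the groups overlapped for Mybph, Myom3 and Lmod2. The median log2 fold change over the 9 genes was -0.75, beside 0.0 over all genes tested. The 9 genes and the lists below were chosen with earlier results of these data known. Their counts beside the shares of all genes are therefore a description and not a test. With replicates 1 and 3 only, 0 of 9 passed the adjusted p in edgeR, as for all genes. An unadjusted p under 0.05 was found for 8 of 9, beside 5026 of 14447 genes tested. The log2 fold changes of the 9 genes lay between -2.06 and -0.61. With total counts in place of TMM, which moves the median of all genes up by 0.27 on the log2 scale, 6 of 9 passed. All 9 log2 fold changes were still negative. Of all 14395 genes 9313 passed with total counts, 2010 of them lower. In bulk tissue, fewer muscle fibres and less of these RNAs per fibre cannot be told apart.

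**Figure D1:**
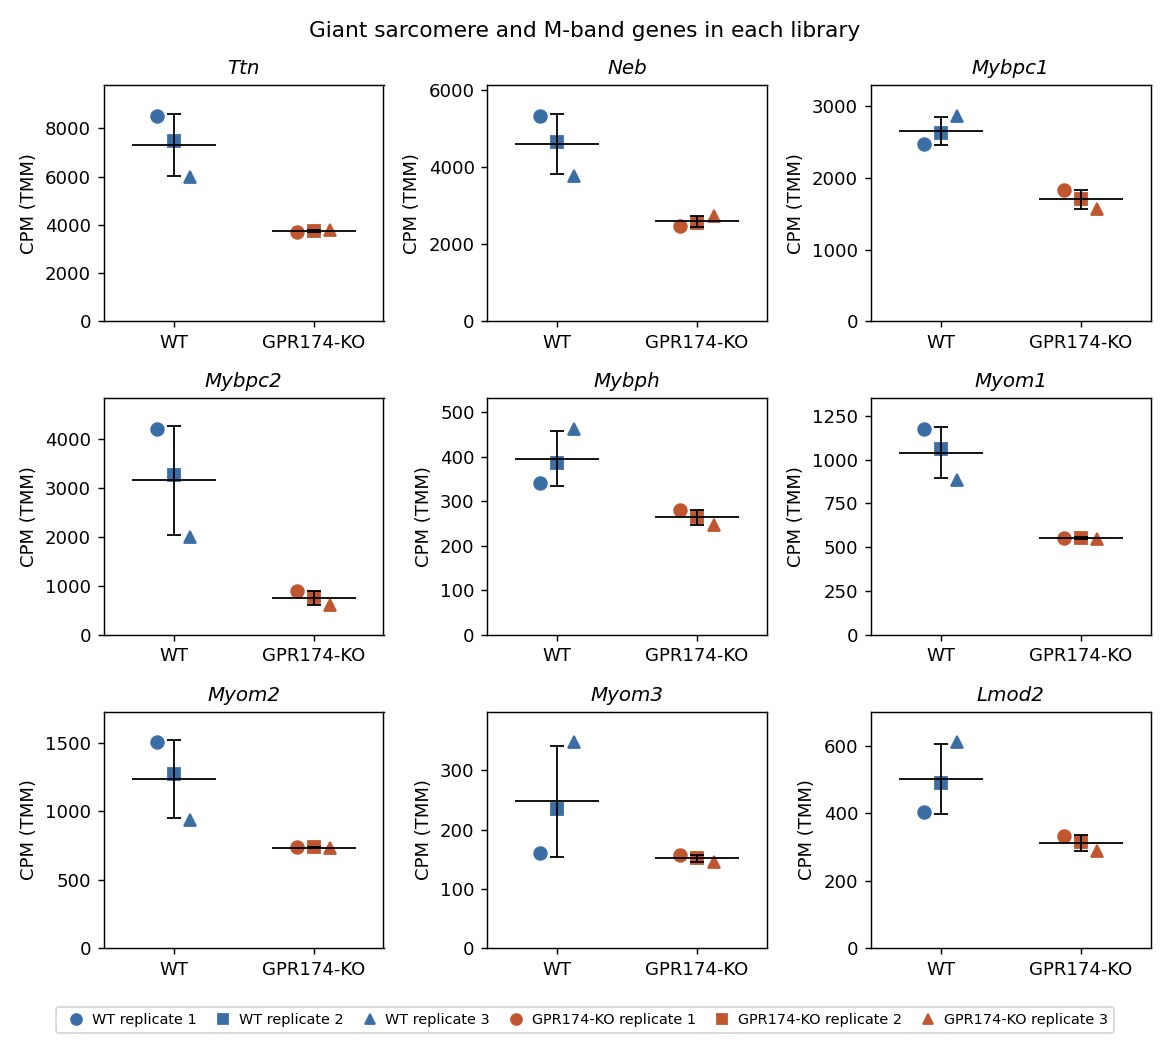
CPM with TMM scaling (y axis, linear from 0) of each gene in the 3 WT libraries (blue) and the 3 GPR174-KO libraries (orange), with the replicate number given by the symbol, lines at the group mean and bars of 1 SD. In every panel the GPR174-KO points lie below the WT points, and the gap is narrowest for Myom3, with 161 CPM in the lowest WT library and 157 in the highest GPR174-KO library.

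The transcripts of both giant filament proteins fell. Ttn, which encodes titin, the spring and ruler of the sarcomere, had 8520, 7466 and 5974 CPM in WT replicates 1 to 3 and 3726, 3758 and 3797 CPM in the GPR174-KO replicates. Every GPR174-KO library was below every WT library, and the lowest WT value was 1.57 times the highest GPR174-KO value. The log2 fold change was -0.96 ± 0.15 (SE, n = 3 per group, edgeR adjusted p = 0.00252), a level 1.95-fold lower. With replicates 1 and 3 only it was -0.95 (edgeR adjusted p = 0.0844).

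Neb, which encodes nebulin, the thin filament protein, had 5338, 4667 and 3786 CPM in WT and 2475, 2568 and 2745 CPM in GPR174-KO. The groups did not overlap here either. The log2 fold change was -0.82 ± 0.14 (SE, n = 3 per group, edgeR adjusted p = 0.0039) and -0.81 with replicates 1 and 3 only (edgeR adjusted p = 0.101). Because of their length, these 2 transcripts took 54.6% to 61.3% of the counts of all 9 genes in the 6 libraries, but only 9.3% to 12.6% of their TPM (a relative transcript level, in which reads are divided by transcript length). All 9 genes together took 2.1%, 1.94% and 1.7% of all counts in the WT libraries and 1.18%, 1.19% and 1.2% in the GPR174-KO libraries. The median log2 fold change of the 313 genes of 10 kb or more, which include Ttn and Neb, was 0.02, with 82 higher and 59 lower, and that of the 4226 genes under 2 kb was -0.09. The part of transcript length in these changes was not tested.

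The 250 bases before the RefSeq start of Ttn (GRCm38.p6, chr2:76982548-76982797 on the minus strand) are shown because Ttn is the longest transcript of the 9 and its promoter holds a match to a strict form of the MEF2 consensus, CTA and TAG around 4 bases that are each A or T. Capitals mark that match, which begins 166 bases before the start, and an E-box (CANNTG), which begins 138 bases before it.
Ttn: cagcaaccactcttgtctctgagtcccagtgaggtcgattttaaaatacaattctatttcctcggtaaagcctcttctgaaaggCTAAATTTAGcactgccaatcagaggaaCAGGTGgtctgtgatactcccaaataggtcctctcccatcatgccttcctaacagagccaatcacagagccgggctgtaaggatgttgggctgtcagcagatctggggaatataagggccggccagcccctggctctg
This strict MEF2 form was found on either strand in 0.508% of 32851 mouse promoters of this length, and an E-box in 66.2%.

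The myosin-binding proteins held both the largest and the smallest change. Mybpc2, which encodes the fast type of myosin-binding protein C, had 4210, 3267 and 1997 CPM in WT and 886, 769 and 605 CPM in GPR174-KO. The groups were separated by a gap of 2.25-fold although the WT libraries themselves spread 2.11-fold. Its log2 fold change was -2.07 ± 0.29 (SE, n = 3 per group, edgeR adjusted p = 0.00185), or 4.19-fold lower, and -2.06 with replicates 1 and 3 only (edgeR adjusted p = 0.0574).

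Mybpc1, which encodes the slow type of the same protein and is also present in fast fibres, had 2471, 2632 and 2865 CPM in WT and 1826, 1710 and 1568 CPM in GPR174-KO. The groups did not overlap, and the fall was much smaller than that of Mybpc2, with a log2 fold change of -0.64 ± 0.10 (SE, n = 3 per group, edgeR adjusted p = 0.003), and -0.65 with replicates 1 and 3 only (edgeR adjusted p = 0.102). Mybph, which encodes the shorter myosin-binding protein H, had 340, 385 and 462 CPM in WT and 280, 265 and 247 CPM in GPR174-KO. All GPR174-KO values were below the lowest WT value. Its log2 fold change was -0.59 ± 0.12 (SE, n = 3 per group, edgeR adjusted p = 0.00654) and -0.61 with replicates 1 and 3 only (edgeR adjusted p = 0.0944). With total counts in place of TMM it was -0.32 (edgeR adjusted p = 0.0839).

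The slow and fast types changed places in order. On the TPM scale, which allows levels of different genes to be compared, Mybpc2 had 1918, 1550 and 1005 TPM in WT and 538, 480 and 392 TPM in GPR174-KO. Mybpc1 had 1048, 1162 and 1342 TPM in WT and 1030, 990 and 944 TPM in GPR174-KO. The ratio of Mybpc1 to Mybpc2 was therefore 0.546, 0.75 and 1.33 in the WT libraries and 1.92, 2.06 and 2.41 in the GPR174-KO libraries. The ratio was above 1 in all 3 GPR174-KO libraries and in 1 of 3 WT libraries, and the groups did not overlap. It was 2.59-fold higher in GPR174-KO (geometric means, exact two-sided permutation test p = 0.1, the smallest that 3 against 3 allows), and 2.51-fold higher with replicates 1 and 3 only (exact p = 0.333, the smallest that 2 against 2 allows). This ratio needs no scaling between libraries, and it was chosen after the values were seen.

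The 250 bases before the RefSeq starts of both genes are shown for that reason (GRCm38.p6, Mybpc1 at chr10:88605153-88605402 on the minus strand, Mybpc2 at chr7:44524670-44524919 on the minus strand). Capitals mark E-boxes in both, and in Mybpc2 also a match to the MCAT element (CATTCC on one strand, read here on the other), which begins 62 bases before the start.
Mybpc1: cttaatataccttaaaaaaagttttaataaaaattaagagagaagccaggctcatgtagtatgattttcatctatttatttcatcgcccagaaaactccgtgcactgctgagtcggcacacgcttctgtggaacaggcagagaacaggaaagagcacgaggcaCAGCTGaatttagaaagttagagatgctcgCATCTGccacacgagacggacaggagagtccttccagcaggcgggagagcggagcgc
Mybpc2: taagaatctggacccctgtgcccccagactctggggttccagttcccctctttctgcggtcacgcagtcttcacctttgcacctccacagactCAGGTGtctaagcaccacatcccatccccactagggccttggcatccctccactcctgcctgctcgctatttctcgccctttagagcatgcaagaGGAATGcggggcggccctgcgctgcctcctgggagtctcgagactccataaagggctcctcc
Mybpc1 held 2 E-boxes and no MCAT match in this window, and Mybpc2 held 1 of each. MCAT matches were found in 12.6% of mouse promoters of this length and in 2 of the 7 listed here, Mybpc2 and Mybph, while E-boxes were found in 7 of 7. These matches describe letters and say nothing of binding.

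**Figure D2:**
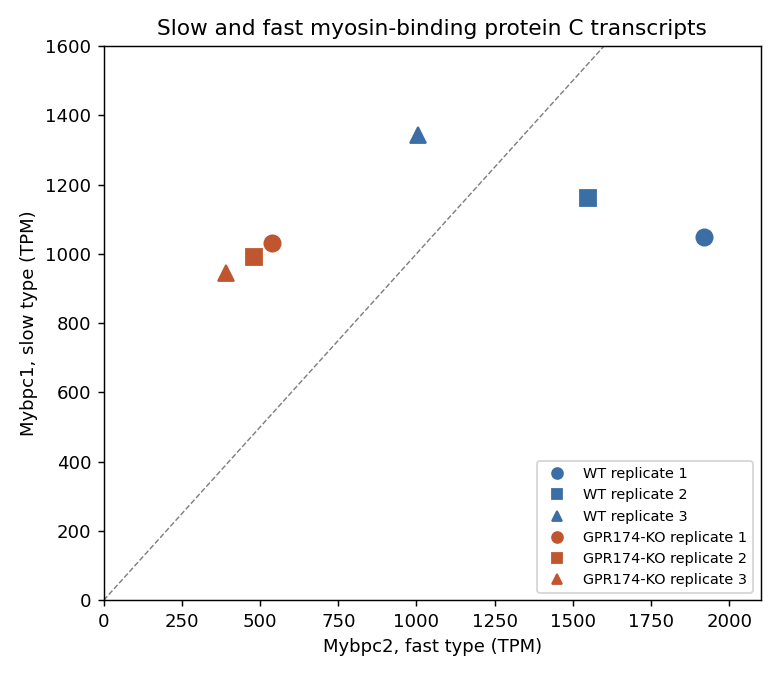
TPM of Mybpc2 (x axis) against TPM of Mybpc1 (y axis) in each library, both axes linear from 0, with a dashed line where both are equal. The 3 GPR174-KO points lie above the line, with ratios of 1.92 to 2.41, and the WT points run from 0.546 to 1.33.

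The M-band genes fell by less than Mybpc2 and at different degrees of certainty. Myom1, which encodes myomesin 1, present in the M-band of all striated muscle, had 1174, 1060 and 883 CPM in WT and 554, 554 and 549 CPM in GPR174-KO. The GPR174-KO libraries were nearly equal and lay well below the WT range. The log2 fold change was -0.91 ± 0.11 (SE, n = 3 per group, edgeR adjusted p = 0.00135) and -0.90 with replicates 1 and 3 only (edgeR adjusted p = 0.059).

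Myom2, which encodes the M-protein of fast fibres, had 1505, 1276 and 936 CPM in WT and 737, 739 and 730 CPM in GPR174-KO. Again the GPR174-KO libraries were close together and below all WT libraries. The log2 fold change was -0.75 ± 0.17 (SE, n = 3 per group, edgeR adjusted p = 0.00891) and -0.73 with replicates 1 and 3 only (edgeR adjusted p = 0.117). Myom3, which encodes myomesin 3 of slower fibres, had 161, 235 and 347 CPM in WT and 157, 153 and 145 CPM in GPR174-KO. WT replicate 1 was almost at the GPR174-KO level, and the WT libraries spread 2.16-fold. Its log2 fold change of -0.71 ± 0.25 (SE, n = 3 per group) had an edgeR adjusted p of 0.0487, the weakest of the 9. It was -0.37 without WT replicate 3 (edgeR adjusted p = 0.0679), -0.93 without WT replicate 1 (edgeR adjusted p = 0.00304) and -0.75 with replicates 1 and 3 only (edgeR adjusted p = 0.216).

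The ratio of Myom2 to Myom1 in TPM was 1.38, 1.3 and 1.14 in WT and 1.43 in each GPR174-KO library. It was higher in GPR174-KO without overlap, by 1.13-fold (exact two-sided permutation test p = 0.1, the smallest possible), and by 1.14-fold with replicates 1 and 3 only (exact p = 0.333, the smallest possible). The ratio of Myom3 to Myom1 was 0.149, 0.242 and 0.433 in WT and 0.316, 0.3 and 0.287 in GPR174-KO, so that the GPR174-KO values lay inside the WT range. Of the other ratios computed, Neb to Ttn was 1.1-fold higher without overlap (exact two-sided permutation test p = 0.1). Those of Lmod2 to Neb and Mybph to Mybpc1 overlapped. The p-values of all ratios are unadjusted, and no share over other gene pairs was computed.

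The promoter of Myom1 (GRCm38.p6, chr17:71019307-71019556 on the plus strand) is shown as the only one of the 7 with a CArG match (CC and GG around 6 bases that are each A or T), the element bound by serum response factor, which occurred in 1.47% of mouse promoters of this length. Capitals mark that match, which begins 99 bases before the start, and 3 E-boxes.
Myom1: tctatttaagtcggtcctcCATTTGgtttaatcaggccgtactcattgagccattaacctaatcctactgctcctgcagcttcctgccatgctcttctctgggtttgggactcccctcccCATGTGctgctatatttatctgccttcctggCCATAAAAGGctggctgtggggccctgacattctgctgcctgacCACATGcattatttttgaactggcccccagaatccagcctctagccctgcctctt

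Lmod2, which encodes leiomodin 2, a regulator of thin filament length, had 403, 491 and 611 CPM in WT and 333, 315 and 287 CPM in GPR174-KO. The groups did not overlap, with the lowest WT library 1.21 times the highest GPR174-KO library. The log2 fold change was -0.69 ± 0.15 (SE, n = 3 per group, edgeR adjusted p = 0.00879) and -0.71 with replicates 1 and 3 only (edgeR adjusted p = 0.101). With total counts in place of TMM it was -0.42 (edgeR adjusted p = 0.0676).

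The WT libraries were spread more widely than the GPR174-KO libraries for 8 of the 9 genes, Mybpc1 being the exception with 1.16-fold between the highest and lowest library in both groups. This was not particular to these genes. Among genes of at least 500 mean counts, 623 of 5989 in WT differed at least 1.5-fold between replicates 1 and 3. In GPR174-KO 48 of 6910 did. For Ttn that fold was 1.43 in WT and 1.02 in GPR174-KO, and for Myom1 it was 1.33 and 1.01. Within WT the genes moved in opposite ways. Ttn, Neb, Mybpc2, Myom1 and Myom2 were highest in WT replicate 1 and lowest in WT replicate 3, and Mybpc1, Mybph, Myom3 and Lmod2 were the reverse. The summed CPM of the fast fibre genes was 208470, 180770 and 141770 in WT replicates 1, 2 and 3, an order shared by the first 5 genes.

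In length-corrected levels the order of the 9 genes was nearly the same in both groups. In WT the mean TPM was 1491 for Mybpc2, 1184 for Mybpc1, 450.4 for Lmod2, 427.7 for Myom2, 377.8 for Mybph, 343.6 for Neb, 334.4 for Myom1, 146.0 for Ttn and 88.77 for Myom3. Among neighbours in that order, only Mybpc1 and Lmod2, and Myom1 and Ttn, had library ranges that did not overlap. In GPR174-KO, Mybpc1 led with 988.3 TPM and Mybpc2 followed with 469.9, and the order below was that of WT, down to 98.82 for Ttn and 70.45 for Myom3. There only Myom2 and Mybph, and Neb and Myom1, overlapped. TPM sums to a fixed total in each library and carries no TMM scaling, and on that scale the groups overlapped for Mybph, Myom2, Myom3 and Lmod2.

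Other genes of mature fibres fell further than most of these 9. Of the mature fast fibre list, 16 of 16 genes were lower past the adjusted p, beside 27.6% of all genes, with a median log2 fold change of -1.42. Its largest decreases were Pvalb, the calcium buffer parvalbumin, at -2.34 and Myh1, a fast myosin heavy chain, at -1.76. Its summed level was 142000 to 208000 CPM in WT and 64700 to 72000 CPM in GPR174-KO, without overlap. Set against that sum within each library, which removes the scaling, 7 of the 9 genes were higher in GPR174-KO without overlap. The difference in the log2 ratio was 0.41 for Ttn, 0.54 for Neb, 0.71 for Mybpc1, 0.78 for Mybph, 0.45 for Myom1, 0.63 for Myom2 and 0.68 for Lmod2 (exact two-sided permutation test p = 0.1 for each, the smallest that 3 against 3 allows, unadjusted over 9 tests). Mybpc2 was the one gene lower relative to fast fibre genes, by a log2 difference of -0.67 without overlap (exact p = 0.1). Myom3 differed by 0.72 with overlapping groups (exact p = 0.4). With replicates 1 and 3 only the same 7 genes were higher, by 0.41 to 0.74, and Mybpc2 was lower by a log2 difference of -0.65 (exact p = 0.333 for each, the smallest possible). This separation was not particular to these genes, since 94.7% of all genes did not overlap relative to the fast fibre sum and 13493 of 14349 were higher. Relative to the summed slow fibre genes instead, all 9 were lower in GPR174-KO without overlap, from -0.64 for Mybph to -2.08 for Mybpc2, so the direction for 7 genes turns with the reference chosen. The slow fibre sum differed little between groups (log2 difference 0.06), so this mostly repeats the CPM comparison. In CPM, 32.4% of all genes were lower without overlap, and the share relative to the slow fibre sum was not computed. All 9 genes were also lower relative to slow fibre genes with replicates 1 and 3 only, from -0.64 for Mybph to -2.03 for Mybpc2. Leaving out libraries cannot make separate groups overlap, so for separated genes only the sizes of these differences could change.

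**Figure D3:**
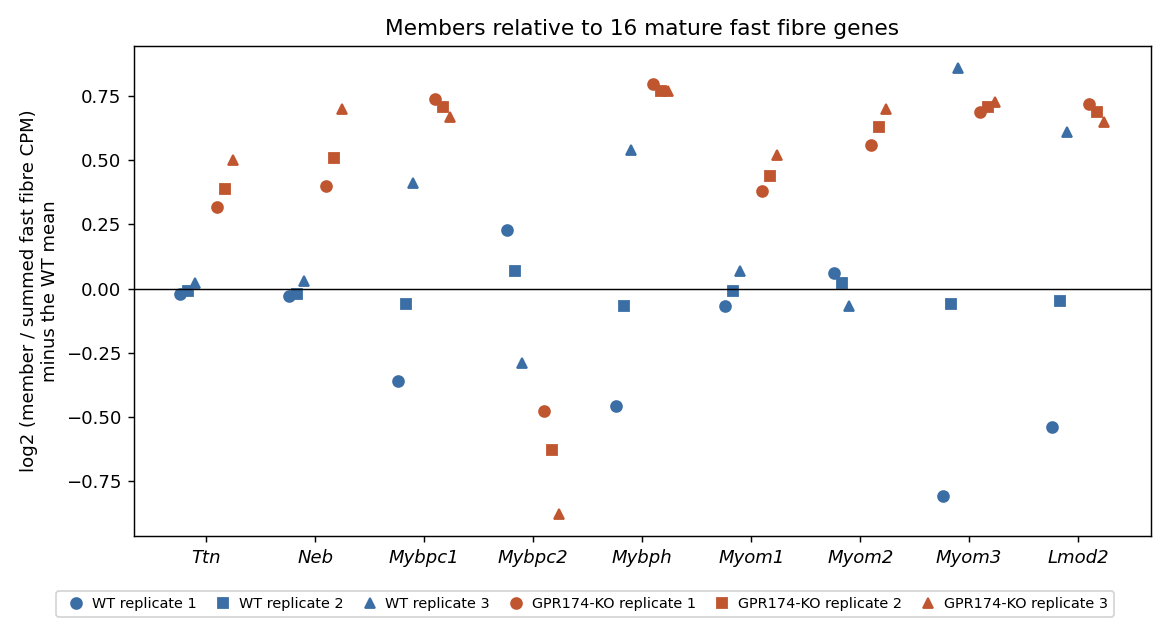
log2 ratio of each gene to the summed CPM of 16 mature fast fibre genes in each library, drawn as the distance from the WT mean (y axis, horizontal line at 0), for WT (blue) and GPR174-KO (orange), with the symbol giving the replicate. The GPR174-KO points lie above WT for 7 genes, below WT for Mybpc2 (mean difference -0.67) and within the WT range for Myom3.

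Marker RNAs of other cell types differed between the groups for some lists and overlapped for others. The counts below stand beside 54.6% of all 14395 genes tested that passed the adjusted p, 3891 of them higher and 3972 lower. Slow fibre genes were mixed, with 2 of 10 higher and 4 lower, from Myl2 at -4.29 and Myl3 at -4.11, ventricular and slow myosin light chains, to Tnnc1, slow troponin C, at 1.09, and the summed levels overlapped (1690 to 2290 CPM in WT, 1940 to 2130 in GPR174-KO). Of 12 regenerating fibre genes 9 were higher, led by Mymx, a factor of myoblast fusion, at 1.84 and Chrng, the fetal acetylcholine receptor subunit, at 1.68, with overlapping sums of 6690 to 8780 and 7940 to 9830 CPM. Without Actc1, the most abundant gene of that list, the sums were 2650 to 5250 and 5380 to 6210 CPM and did not overlap. Of 10 macrophage genes 9 were higher, led by Itgam at 1.60 and Cd68 at 1.22, and the sums did not overlap at 1140 to 1670 CPM in WT and 2710 to 2740 in GPR174-KO. Fibroblast genes had 4 higher and 3 lower of 7, with sums of 16500 to 24100 and 31100 to 34500 CPM, and endothelial genes had 1 higher and 7 lower of 8, with sums of 1000 to 1170 and 638 to 727 CPM. Smooth muscle genes had 2 higher and 2 lower of 5, with Acta2 at 1.2 and Tagln at 1.01. Their sums were 5800 to 6800 CPM in WT and 4010 to 4650 in GPR174-KO, but most of this was Des, which muscle fibres express as well, and the other 4 genes summed to 290 to 420 CPM in WT and 677 to 804 in GPR174-KO, higher without overlap. Adipocyte genes had 2 higher and 1 lower of 5, with sums of 375 to 393 and 248 to 285 CPM. Most of that sum was Fabp4, which endothelial cells express as well, and the other 4 genes were higher in GPR174-KO without overlap, at 38.2 to 51.5 and 56.3 to 92.5 CPM. Schwann cell genes had 1 lower of 5, with overlapping sums. Of the neutrophil genes 2 of 6 could be tested, 1 in each direction, and the sums were 22.2 to 28.9 CPM in WT and 32.4 to 35.4 in GPR174-KO, mostly of Csf3r, without which they were 5.28 to 7.34 and 4.47 to 4.98 CPM. Of the cardiac genes only Tnni3 could be tested and it did not pass, with sums of 1.68 to 2.08 and 1.39 to 1.79 CPM. With replicates 1 and 3 only, no gene of any of these lists passed the adjusted p, as for all genes. The part of these shifts in the lower levels of the 9 genes was not tested.

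Relatives of the same families were more varied than the 9 genes. Of 15 listed, 14 were tested and 12 passed the adjusted p, 8 lower and 4 higher, with a median log2 fold change of -0.54. Over all genes tested 54.6% passed, and 27.6% were called lower. Obsl1, which encodes a cytoskeletal adaptor with immunoglobulin repeats, was higher, with 121, 125 and 126 CPM in WT and 164, 164 and 161 CPM in GPR174-KO. The groups did not overlap, and the log2 fold change of Obsl1 was 0.39 ± 0.05 (SE, n = 3 per group, edgeR adjusted p = 0.00134), and 0.39 with replicates 1 and 3 only (edgeR adjusted p = 0.079).

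Among the other kinase and immunoglobulin-repeat relatives, Speg, a kinase of the triad, fell by 0.75 on the log2 scale and Igfn1, a Z-disc protein, rose by 0.62. Of the nebulin relatives, Nrap, which acts in myofibril assembly, had a log2 fold change of -1.07, Lasp1, which is found in non-muscle cells as well, had 0.38, and Nebl, the cardiac nebulette, had -0.54 at about 1 CPM and did not pass (edgeR adjusted p = 0.118). Mybphl, a homologue of Mybph, had -2.73 ± 0.54 (SE, n = 3 per group) from at most 3.05 CPM in any library, and Mybpc3, the cardiac type, had at most 0.279 CPM and was not tested. The pointed-end proteins split. Lmod1, the smooth muscle leiomodin, had -0.53, Lmod3 -0.44, Tmod1 -0.69 and Tmod4, a tropomodulin of skeletal muscle, -0.96. Tmod3, the widely expressed form, had 0.13 (edgeR adjusted p = 0.0481), a call lost in 10 of 17 alternatives, among them the DESeq2 Wald test (adjusted p = 0.145) and the replicate block (edgeR adjusted p = 0.0993). Tmod2, the neural form, had -0.18 and did not pass (edgeR adjusted p = 0.156). The order among the relatives can be seen in the plot of fold changes.

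**Figure D4:**
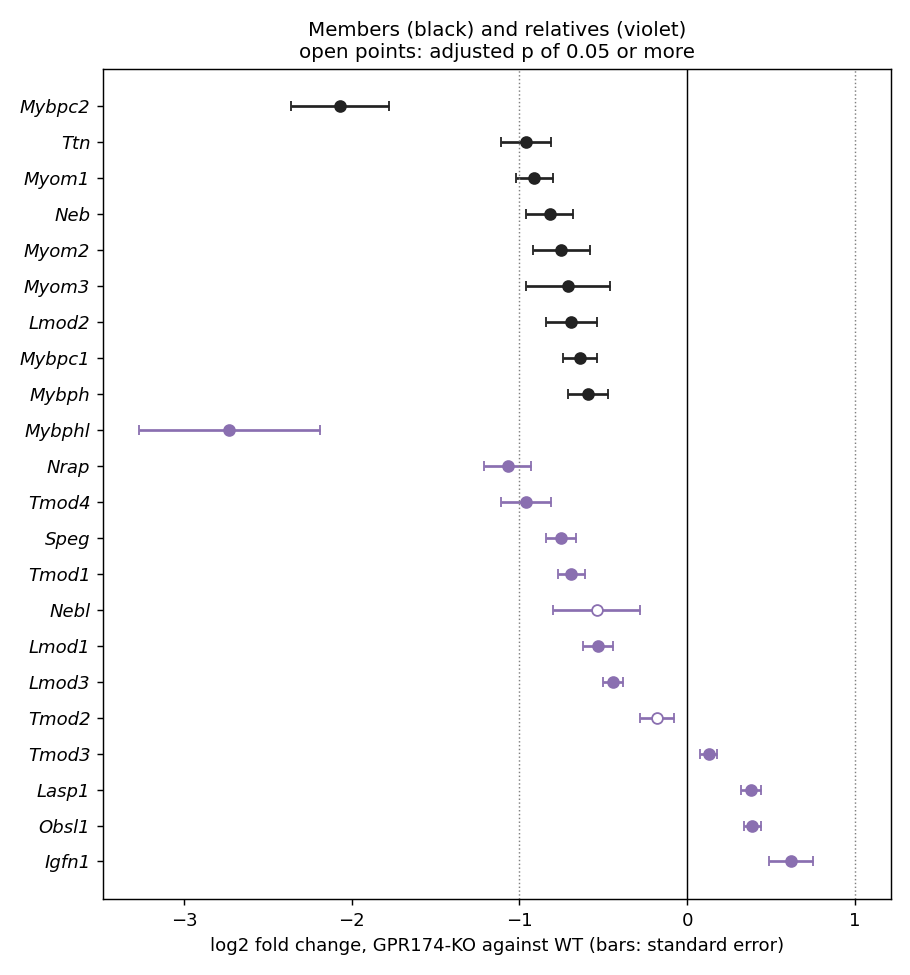
log2 fold change of GPR174-KO against WT (x axis, with bars of 1 SE) for the 9 genes (black) and tested relatives (violet, 1 of them not drawn), with dotted lines at a log2 fold change of 1 in either direction and open points where the adjusted p was 0.05 or more. All 9 black points lie below 0 and only Mybpc2 beyond -1, while 4 relatives (Igfn1, Obsl1, Lasp1 and Tmod3) lie above 0.

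Transcripts of proteins that bind or assemble with titin, nebulin or the M-band were lower more often than higher. Of 25 tested partners 19 were lower, 1 was higher and 5 did not pass, with a median log2 fold change of -0.90. Of all genes tested, 27.6% were called lower and 54.6% in either direction. The largest decreases were Ankrd2, an ankyrin-repeat protein of the titin I-band, from 70.0, 76.4 and 89.3 CPM in WT to 11.2, 10.1 and 8.14 CPM in GPR174-KO, and Tcap, telethonin, which caps titin at the Z-disc. Ankrd2 was 8.0-fold lower, with a log2 fold change of -3.00 ± 0.14 (SE, n = 3 per group, edgeR adjusted p = 0.000289), and -3.04 with replicates 1 and 3 only (edgeR adjusted p = 0.0542). Tcap had 751, 702 and 653 CPM in WT and 192, 213 and 244 CPM in GPR174-KO, with a log2 fold change of -1.70 ± 0.11 (SE, n = 3 per group, edgeR adjusted p = 0.000415), and -1.69 with replicates 1 and 3 only (edgeR adjusted p = 0.0542). Both genes were below the WT range in all 3 GPR174-KO libraries. The one partner that was higher was Hsp90aa1, a chaperone used in myosin folding, at 0.85, and those that did not pass were Ankrd1 (0.20), Fhl2 (0.64), Xirp1 (0.22), Trim55 (-0.18) and Nbr1 (-0.20). Ckm and Actn3 stand in both the partner and the fast fibre list. With replicates 1 and 3 only, 0 relatives and 0 partners passed the adjusted p in edgeR. An unadjusted p under 0.05 was found for 11 and 19 of them, beside 5026 of 14447 genes tested.

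The table lists 60 transcripts for the 9 genes, of which 21 held a mean share of at least 5% of their gene's counts in a group. The mean shares of these 21 differed between groups by at most 4.9 percentage points. The share was higher in GPR174-KO without overlap for 6 of these and lower for 2. Among tested genes of at least 500 mean counts with several listed transcripts, 28% of 14405 such transcripts did not overlap in either direction. Replicates 1 and 3 alone gave 6 and 2 as well, but leaving out libraries could only add transcripts to this count. For Ttn, the transcript NM_028004.2 of 81.9 kb took 82.0% ± 0.41 of the counts in WT and 81.6% ± 0.45 in GPR174-KO (SD, n = 3 per group), and XM_011239438.1 of 104 kb took 17.1% and 16.6%. Both shares overlapped between groups. For Myom2, NM_008664.2 went from 94.2%, 93.7% and 89.8% in WT to 87.7%, 86.2% and 89.0% in GPR174-KO, and XM_006508728.4 from 3.76%, 4.82% and 7.6% to 9.35%, 10.3% and 8.85%. For Mybpc1, XM_006513047.4 went from 5.1%, 5.23% and 5.72% to 7.62%, 9.03% and 10.2%. None of these groups overlapped, and each exact two-sided permutation test gave p = 0.1, the smallest possible. Neb has 29 listed transcripts, of which 7 reached the share and 3 were higher and 1 lower without overlap. The shares are estimates among near-identical transcripts, so reads may be divided between them with an error that was not analysed here.

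For each gene except Myom2, the gene outside the 9 whose centred log2 CPM over the 6 libraries differed least was sought among 9963 genes of at least 10 mean CPM, as a description only. The nearest was Ogdh for Ttn (root mean square difference 0.014 on the log2 scale), Kif1c for Neb (0.011) and Coq7 for Myom1 (0.018). For Mybpc1 it was Klhl30 (0.028), for Mybph Hectd2 (0.024), for Lmod2 Pdlim3 (0.024) and for Myom3 Cpne2 (0.046). Mybpc2 had no close match, the nearest being Kera at 0.11. Among the 9 genes themselves the closest pair was Ttn and Myom1 (0.039), followed by Mybph and Lmod2 (0.067). The 6 points share 2 groups and, in each group, the relation of replicate 2 to the other replicates.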

How the data were processed

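Total RNA of ischemic gastrocnemius was sequenced on the BGISEQ-500 platform and analysed by a sequencing company for the authors, and libraries were made with a TruSeq RNA kit per the labels. The deposited table has 58843 RefSeq transcript rows and gives, per library, expected (estimated) counts, FPKM and TPM. The expected counts deposited are not normalized, and the deposited FPKM and TPM are scaled for length and library size by the authors. The submitters' processing notes name HISAT2 2.0.4, Bowtie2 2.2.5, RSEM 1.2.12 and GRCm39, with no role or order. The strand use is not given in the sources used here. Its columns of group means were left out.

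Counts were summed per Entrez gene and rounded. Genotype and replicate came from the labels. The study's own thresholds (adjusted p of 0.05, absolute log2 fold change of 1) were applied in edgeR 4.0.16 (TMM, filterByExpr, robust quasi-likelihood F-test, Benjamini-Hochberg over all genes tested) under R 4.3.3, since the tool it used, DEGseq, has no replicate term. The SE of an edgeR log2 fold change is its absolute value divided by the square root of the F statistic of that test. Ratios and shares used exact two-sided permutation tests. The members and all lists were chosen with earlier results of these data known. Named genes are all members, the relatives, the largest changes past both thresholds in every other list (up to 2 in each direction), Gpr174 and the nearest gene to each member, and 3 of the genes so chosen are not reported here. Alternatives used DESeq2 1.42.0, limma 3.58.1, other scalings and filters, FPKM on a log2 scale, left-out libraries and a replicate block. Ratios with replicates 1 and 3 only, and list sums without their most abundant gene, were added after the data were seen. On simulated counts for 14368 genes of this comparison, 100% of 200 changed genes were recovered with 12 false calls. That simulation drew independent libraries at a fixed dispersion, with few genes changed and all by the same size. It says nothing of the error rate in the real libraries, where replicate 2 matched a weighted sum of the others. Promoters are from RefSeq on GRCm38.p6, listed for 7 of the 9 genes (Neb and Myom2 have none listed).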

Additional observations from a re-analysis of the deposited data

How the results depend on the processing

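All 9 genes kept a negative log2 fold change under each of 17 alternatives, and of the 153 values 126 stayed on the same side of the adjusted p while 27 lost it. Myom3 lost it most often, holding it in 4 of 17 alternatives. The number of the 9 genes past the adjusted p was 0 with replicates 1 and 3 only (main value 9), and the number past both thresholds was 0 (main value 1). With replicates 1 and 3 only, 0 relatives and 0 partners passed, and of all genes 0 passed the adjusted p (main value 7863) and 0 passed both thresholds (main value 1192). Leaving out 1 library at a time gave 1 to 3 of the 9 genes past both thresholds, the 3 without WT replicate 3 being Ttn, Mybpc2 and Myom1, and 8 to 9 past the adjusted p. Over all genes it gave 924 to 1826 past both thresholds, the highest without WT replicate 3, and 5457 to 9165 past the adjusted p. limma on log2(FPKM + 1) gave 645 genes past both thresholds and on log2(FPKM + 0.1) 1113, and 6 of the 9 genes past the adjusted p in both. Of 12525 genes tested there, 8640 and 8614 passed the adjusted p, of which 1823 and 1816 were lower. Total counts in place of TMM moved the split of all genes past the adjusted p from 3891 higher and 3972 lower to 7303 and 2010, and past both thresholds from 496 and 696 to 1144 and 354. Tmod2 changed sign, to 0.09 with total counts, 0.06 with log2(FPKM + 1) and 0.09 with log2(FPKM + 0.1), with no call in either direction. Without the most abundant gene of a list, the log2 difference in summed CPM changed sign for smooth muscle (-0.53 to 1.09), adipocyte (-0.54 to 0.70), neutrophil (0.42 to -0.48) and cardiac (-0.27 to 0.09) genes. The labels do not say whether replicate numbers pair the samples. Deviations from the group means had correlations of 0.016, -0.028 and -0.008 between libraries of the same number. These are not separate checks, because replicate 2 matched a weighted sum of the others, and they cannot exclude pairing. With the replicate block 8 of the 9 genes, 6812 genes at any fold change and 1139 past both thresholds passed. Myom3 was the gene lost (log2 fold change -0.64, adjusted p = 0.0925 in edgeR). Depth limited Gpr174, Mybpc3, Mybphl and Nebl, and the causes of the changes above were not tested.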
